A study of Mus musculus with 12 samples.

Results

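Oligodendrocyte and myelin genes were examined as a group in RNA-seq of the mouse hippocampus. The 34 members were taken from a list of myelin, oligodendrocyte and precursor genes by gene symbol, matched to the Ensembl gene IDs of the count files, and are 34 of the 37991 genes counted. They fall into 27 genes of mature oligodendrocytes, 2 genes of newly formed oligodendrocytes (Enpp6 and Bcas1), 3 transcription factors of the whole lineage (Sox10, Olig1 and Olig2) and 2 genes of the precursor cells (Pdgfra and Cspg4). The libraries come from 12 mice of the C57BL/6N strain, aged 6 to 7 months, that all went through the passive avoidance (PA) test, a fear-based memory task, and were killed 1 h later. They were bred from heterozygous parents, and 6 are labelled Wildtype and 6 Gadd45a-KO, the latter lacking Gadd45a, a stress-response protein, in all tissues through a germline deletion. The comparison asks which hippocampal transcripts differ between the genotypes after memory training.

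Oligodendrocytes wrap the axons of the central nervous system in myelin, a stack of membrane rich in lipid and in a few abundant proteins. They arise from precursor cells that carry the receptor Pdgfra and the proteoglycan Cspg4, pass through a short-lived newly formed state and then switch on the myelin genes under the transcription factors Sox10 and Olig2. In the hippocampus myelin is concentrated in the fibre tracts, such as the alveus and fimbria, and the neighbouring thalamus and white matter are more heavily myelinated than the hippocampal cell layers.

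Promoters of 4 members are shown as examples, the mature genes Mobp, Opalin and Ermn, which hold matches to the motifs below, and Pdgfra, which holds none. Mature genes without a match, such as Mog, Mal and Cldn11, moved from library to library with the other mature genes too, as described further on. The windows run from 250 bases before to 50 bases after the transcription start, in the RefSeq annotation of GRCm38.p6, 5′ to 3′ on the strand of the gene. Capitals mark the letters ACAAAG and ACAATG on either strand, which are core motifs of SOX proteins such as Sox10 and do not overlap each other. The Mobp window lies at chr9:120149492-120149791 on the plus strand, the Opalin window at chr19:41077064-41077363 on the minus strand, the Ermn window at chr2:58052815-58053114 on the minus strand and the Pdgfra window at chr5:75152001-75152300 on the plus strand.
Mobp: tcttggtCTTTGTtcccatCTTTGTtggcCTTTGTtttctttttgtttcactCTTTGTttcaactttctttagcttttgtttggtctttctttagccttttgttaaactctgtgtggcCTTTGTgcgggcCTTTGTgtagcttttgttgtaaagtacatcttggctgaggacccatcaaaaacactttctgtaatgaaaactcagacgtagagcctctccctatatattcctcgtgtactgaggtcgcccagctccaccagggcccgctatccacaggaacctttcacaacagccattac
Opalin: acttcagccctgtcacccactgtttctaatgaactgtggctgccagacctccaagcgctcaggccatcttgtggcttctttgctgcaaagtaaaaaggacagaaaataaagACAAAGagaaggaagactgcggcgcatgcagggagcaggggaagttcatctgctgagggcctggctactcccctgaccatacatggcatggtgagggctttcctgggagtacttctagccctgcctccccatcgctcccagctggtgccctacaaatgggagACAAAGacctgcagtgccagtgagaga
Ermn: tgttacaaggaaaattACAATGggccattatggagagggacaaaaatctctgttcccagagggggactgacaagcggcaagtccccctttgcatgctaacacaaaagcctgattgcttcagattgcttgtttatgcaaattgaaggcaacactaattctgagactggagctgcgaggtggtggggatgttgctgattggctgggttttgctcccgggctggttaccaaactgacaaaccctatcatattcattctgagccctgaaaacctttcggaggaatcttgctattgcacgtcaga
Pdgfra: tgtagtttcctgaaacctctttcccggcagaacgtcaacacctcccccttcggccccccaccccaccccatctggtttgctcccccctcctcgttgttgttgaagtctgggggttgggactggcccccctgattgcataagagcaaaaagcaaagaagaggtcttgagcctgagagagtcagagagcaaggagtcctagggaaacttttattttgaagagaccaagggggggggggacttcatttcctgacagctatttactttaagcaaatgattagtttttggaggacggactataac

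The Mobp window held 6 matches, the Opalin window 2, the Ermn window 1 and the Pdgfra window 0. Of the 34 members, 25 had a promoter in the RefSeq table, and 12 of these 25 held at least 1 match in a window, as did 10 of 21 mature members. Over all 27025 genes with a promoter the share was 31.7%. A match is a description of these letters alone and says nothing of binding.

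Between 44594261 and 55540601 reads per library fell on genes, and CPM is the usual depth-scaled read count, here with the TMM factors of edgeR. All 34 members were among the 16399 genes that passed the expression filter. The libraries are named by their labels because the targeted gene went against them. Gadd45a had 2.19 to 3.43 CPM in the libraries labelled Wildtype and 20.5 to 23.1 CPM in those labelled Gadd45a-KO. In this mouse line the first 3 exons are replaced by a neomycin cassette and exon 4 remains, and a count per gene does not separate the exons, so that the reads on Gadd45a do not check the labels. The 10 markers of hippocampal neurons were all detected, with a summed level of 6714 to 8152 CPM. Most of this level came from Snap25, Syt1 and Slc17a7, which neurons of other brain regions also express. Their detection therefore does not check the tissue label against other regions.

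The library labelled Gadd45a-KO replicate 3 stood apart from the other 11 in the members. It was the highest of the 12 libraries for 33 of 34 members, against 14.9% of all genes tested, Pdgfra being the exception. Its level was over 1.5 times the mean of the other 5 Gadd45a-KO libraries for 30 of 34 members, against 4.65% of all genes. The main results are given with and without it. At the other end, the library labelled Wildtype replicate 5 was the lowest of the 12 for 29 of 34 members, against 9.37% of all genes. Reads on no gene also differed by label, at 14.4% to 15.8% in the Wildtype and 13.0% to 14.3% in the Gadd45a-KO libraries, with the lowest share in replicate 3 of the latter. The part of this share in the members' levels was not tested. In a bulk tissue sample, more cells of a type and more RNA per cell cannot be told apart.

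**Figure D1:**
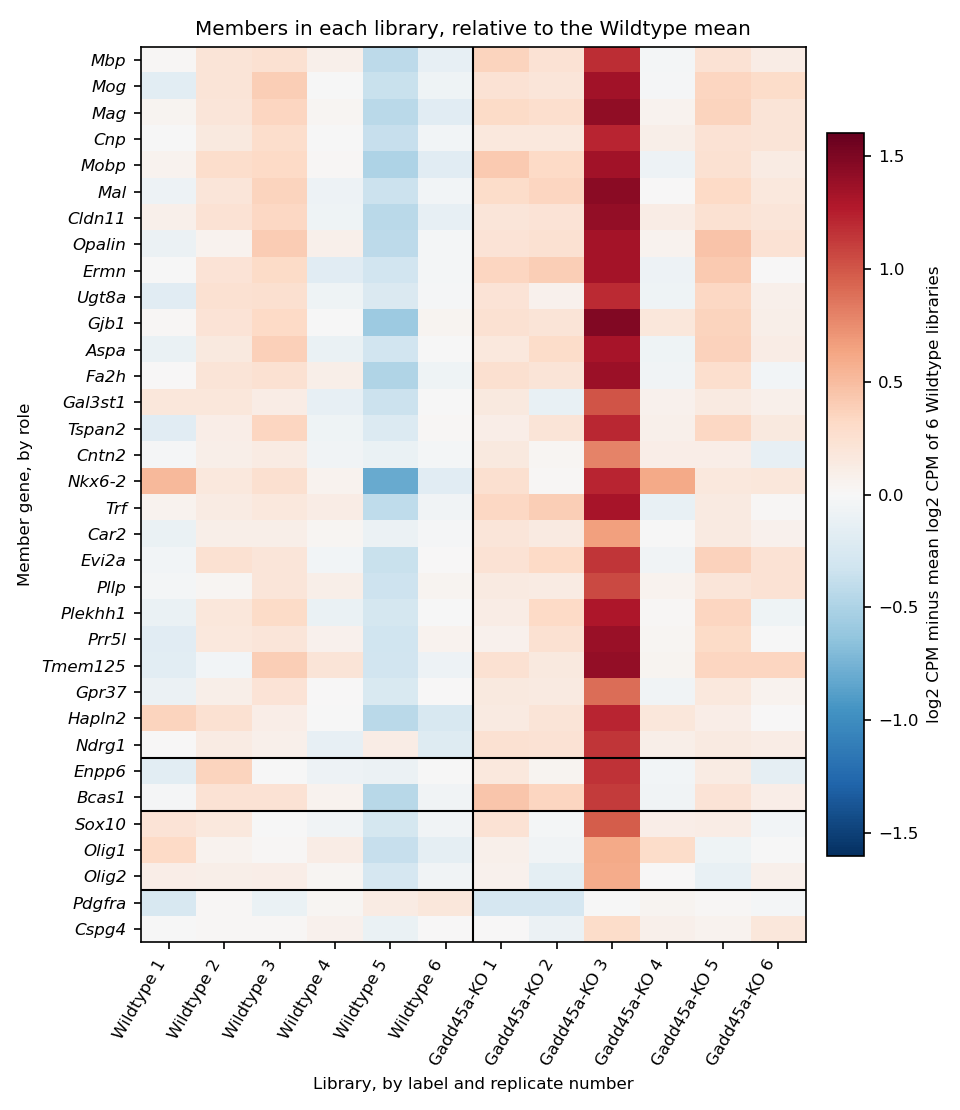
Heat map of the 34 members (rows, grouped by role from mature to precursor) in the 12 libraries (columns, by label and replicate number), coloured by log2 CPM minus the mean log2 CPM of the 6 Wildtype libraries. Gadd45a-KO replicate 3 is the dark red column and is highest for 33 of 34 members, Wildtype replicate 5 is the lowest for 29 of 34, and Pdgfra and Cspg4 vary little.

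No member passed the 1% FDR used by the study in the comparison of the labels. With edgeR's quasi-likelihood test and Benjamini-Hochberg adjustment over all genes, 0 of 34 members were called, while 2.65% of all genes tested were called (2.62% with lower and 0.0244% with higher levels under the Gadd45a-KO label). At 5% FDR 0 of 34 members were called, against 4.55% of all genes. The estimates nevertheless leaned to 1 side. Of the 34 members, 33 had a log2 fold change above 0, that is, a higher level under the Gadd45a-KO label, against 51.8% of all genes, and 18 of 34 were higher at an unadjusted p under 0.05, against 4.34% of all genes. DESeq2 called 0 members at 1% FDR, against 3.93% of all genes, and gave 9 of 34 an unadjusted p under 0.05, all higher, against 3.33% of all genes. The median log2 fold change was 0.40 over the members and 0.00 over all genes tested. Adjusted p-values from edgeR ran from 0.270 to 0.810.

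A single library carried much of that difference. Without Gadd45a-KO replicate 3 the median log2 fold change of the members was 0.16, and 4 of 34 (Mal, Car2, Evi2a and Ndrg1) were higher at an unadjusted p under 0.05 in edgeR, against 3.12% of all genes. Of the 34, 32 had a log2 fold change above 0, against 56.5% of all genes. DESeq2 without this library, a fit added after the data were seen, called 0 members at 1% FDR, against 3.24% of all genes, and 6 of 34 were higher at an unadjusted p under 0.05, against 1.84%. With all 12 libraries, those of the 2 labels overlapped for every member, against 0.183% of all genes that lay without overlap higher and 3.12% lower. Without Wildtype replicate 5, 1 of 34 members was higher at an unadjusted p under 0.05, against 4.36% of all genes, and the median log2 fold change was 0.34. Without Wildtype replicate 1, 4 or 6 in turn, 4, 7 and 3 of 34 members had an unadjusted p under 0.05. The medians there were 0.40, 0.40 and 0.39. A lower count at this threshold was thus not particular to Gadd45a-KO replicate 3, whereas the lowest median was. With replicate 3 of both labels left out, a choice made after the data were seen, the median was 0.21, 18 of 34 were higher at an unadjusted p under 0.05, against 3.18% of all genes, and 0 were called at 5% FDR, against 2.99% of all genes.

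**Figure D2:**
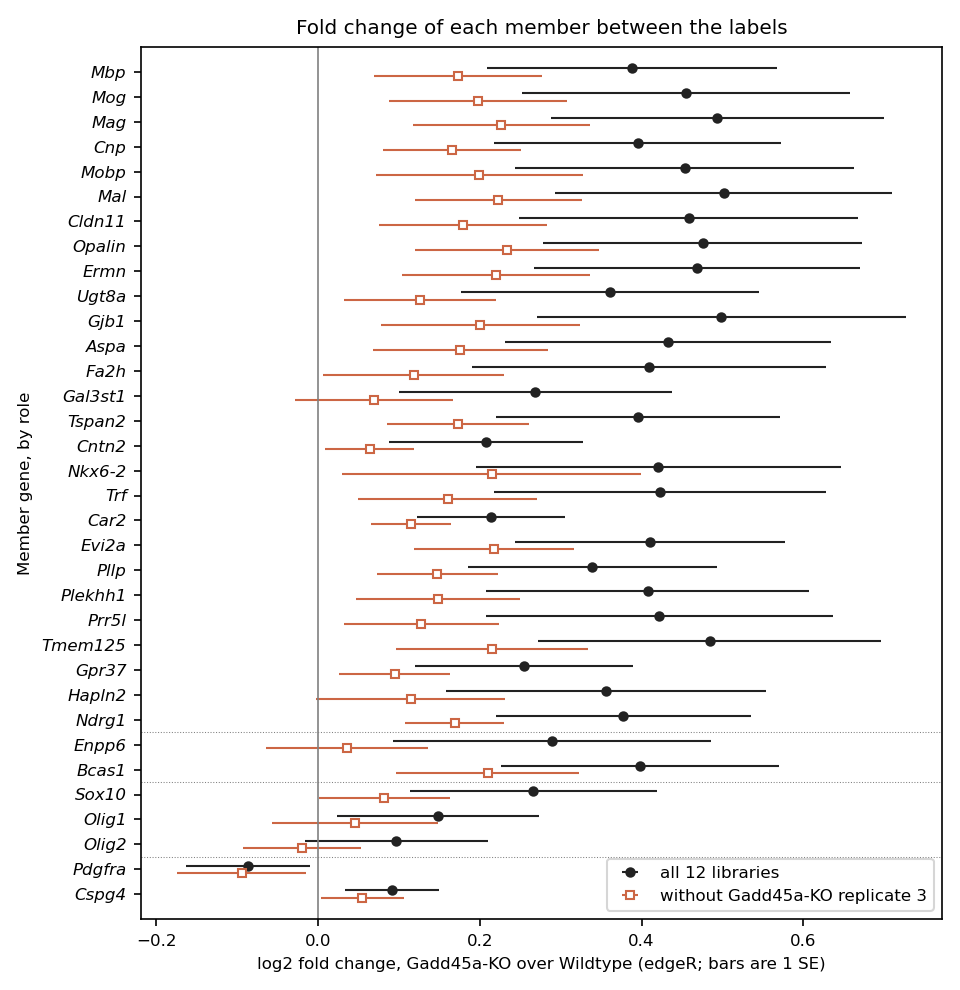
Log2 fold change of each member, libraries labelled Gadd45a-KO over Wildtype, from edgeR with all 12 libraries (filled circles) and without Gadd45a-KO replicate 3 (open squares); bars are 1 standard error and dotted lines separate the roles. The median of the 34 moves from 0.40 to 0.16, and Pdgfra lies below 0 in both.

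Genes of the myelin membrane were taken first. Mbp, the basic protein that holds the inner faces of the membrane together, had the highest level of the 34 per length, 157 CPM per kb of exon in the Wildtype libraries. Its lowest, median and highest levels were 976, 1346 and 1538 CPM in the libraries labelled Wildtype and 1268, 1523 and 2951 CPM in those labelled Gadd45a-KO. The highest of the Gadd45a-KO libraries was replicate 3, and the next was at 1659 CPM, so that the ranges overlapped widely. The log2 fold change was 0.39 (SE 0.18, adjusted p = 0.357, edgeR) and 0.17 (SE 0.10, adjusted p = 0.647, edgeR) without replicate 3. Mog, the glycoprotein on the outermost surface of myelin, had 24.9, 31.1 and 41.9 CPM in the Wildtype libraries and 31.6, 38.2 and 81.4 CPM in the Gadd45a-KO libraries, again with replicate 3 at the top. Its log2 fold change was 0.45 (SE 0.20, adjusted p = 0.334, edgeR), and 0.20 without replicate 3.

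Mal, a proteolipid of myelin rafts (NCBIM37 chr2:127458962-127482431), Gjb1, the connexin of myelin gap junctions (chrX:98571717-98580968), and Mag, the adhesion protein facing the axon (chr7:31684202-31699851), had the 3 highest log2 fold changes of the group. Mal had 102, 125 and 167 CPM in the Wildtype libraries and 131, 161 and 354 CPM in the Gadd45a-KO libraries, a log2 fold change of 0.50 (SE 0.21, adjusted p = 0.287, edgeR). Gjb1 had 3.82, 5.84 and 7.13 CPM against 6.12, 6.68 and 16.0 CPM, a log2 fold change of 0.50 (SE 0.23, adjusted p = 0.350, edgeR). In both genes the Gadd45a-KO libraries other than replicate 3 ended within or barely above the Wildtype range, at 166 CPM for Mal and 7.32 CPM for Gjb1. Mag had 68.5, 94.5 and 117 CPM against 95.7, 113 and 245 CPM, and a log2 fold change of 0.49 (SE 0.21, adjusted p = 0.289, edgeR). Without replicate 3 the log2 fold changes were 0.22 for Mal, 0.20 for Gjb1 and 0.23 for Mag.

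The other membrane and cytoskeletal proteins of myelin lay in the same range. The log2 fold change was 0.40 for Cnp, the cyclic nucleotide phosphodiesterase of uncompacted myelin, 0.45 for Mobp, another basic protein, 0.46 for Cldn11, the claudin of its tight junctions, and 0.48 for Opalin, a sialylated membrane glycoprotein. It was 0.34 for Pllp (plasmolipin), 0.40 for the tetraspanin Tspan2 and 0.47 for Ermn, an actin-binding protein of late myelination. Enzymes that supply myelin lipid showed the same sign. Ugt8a and Gal3st1, which make galactosylceramide and then sulfatide, had 0.36 and 0.27, Fa2h, which hydroxylates their fatty acids, had 0.41, and Aspa, which frees acetate from N-acetylaspartate, had 0.43. None of these 11 genes passed 5% FDR. Without replicate 3 the log2 fold changes of all 27 mature genes lay between 0.06 and 0.23, and none of them passed either.

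Cntn2, the adhesion molecule beside the node of Ranvier that neurons also make, and Car2, the carbonic anhydrase that other glia share, had the smallest differences among the mature genes, both with a log2 fold change of 0.21. In Gadd45a-KO replicate 3 they were also the 2 mature genes nearest to the other libraries, at 1.66 and 1.46 times the mean of the other 5 Gadd45a-KO libraries. Hapln2, a link protein of the matrix at nodes, had 0.36, Gpr37, a receptor that restrains differentiation, 0.25, the homeobox factor Nkx6-2 0.42 and the iron carrier Trf 0.42. Trf had 398 to 1300 reads, and another gene model of the same name overlaps 63.7% of its exon bases on the same strand, where reads are not counted for either. Plekhh1, Prr5l and Tmem125, known chiefly as oligodendrocyte-enriched transcripts, had 0.41, 0.42 and 0.48.

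The lowest adjusted p of the 34 belonged to Evi2a, a membrane protein gene inside an intron of Nf1, at 0.270 (log2 fold change 0.41, SE 0.17, edgeR). It had 11.1, 14.0 and 16.7 CPM in the Wildtype libraries and 13.6, 17.1 and 31.2 CPM in the Gadd45a-KO libraries, and without replicate 3 its log2 fold change was 0.22 (adjusted p = 0.425, edgeR). Evi2a shares 17.9% of its exon bases with Evi2b on the same strand. Ndrg1, a stress-responsive protein needed to maintain myelin, had the lowest adjusted p of the 34 without replicate 3. Its levels were 55.8, 66.5 and 71.0 CPM in the Wildtype libraries and 68.6, 73.5 and 142 CPM in the Gadd45a-KO libraries, with a highest value of 76.5 CPM without replicate 3. The log2 fold change was 0.38 (SE 0.16, adjusted p = 0.290, edgeR) and 0.17 (SE 0.06, adjusted p = 0.234, edgeR) without replicate 3.

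Single members were also compared by two-sided exact permutation of the 12 labels, which can reach 0.00216 at the lowest. The test gave p under 0.05 for 7 of 34 members, all with higher levels under the Gadd45a-KO label, against 4.08% of all genes higher. They were Mag, Cnp, Mal, Car2, Evi2a, Pllp and Ndrg1, with exact p from 0.0152 (Ndrg1) to 0.0498 (Evi2a), not adjusted for the 34 members tested. Without Gadd45a-KO replicate 3, a comparison added after the data were seen, the same test gave p under 0.05 for 1 of 34 members, Ndrg1 (exact p = 0.0433), against 2.71% of all genes higher.

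The newly formed genes lay within the range of the mature genes. Bcas1, a protein of oligodendrocytes starting to myelinate, had 76.3, 106 and 123 CPM in the Wildtype libraries and 100.3, 127 and 227 CPM in the Gadd45a-KO libraries (log2 fold change 0.40, SE 0.17, adjusted p = 0.310, edgeR). Enpp6, a choline phosphodiesterase of the same stage and the lowest of the 34 per length at 0.739 CPM per kb, had 2.88, 3.14 and 4.14 CPM against 2.93, 3.45 and 7.23 CPM (log2 fold change 0.29, SE 0.20, adjusted p = 0.595, edgeR). Without replicate 3 these became 0.21 and 0.04.

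Sox10, which activates the myelin genes directly (NCBIM37 chr15:78985343-78994920), had 20.2, 24.1 and 28.7 CPM in the Wildtype libraries and 23.9, 26.6 and 48.1 CPM in the Gadd45a-KO libraries. Its log2 fold change was 0.27 (SE 0.15), and 0.08 (SE 0.08) without replicate 3. The basic helix-loop-helix factors showed less. Olig1 had a log2 fold change of 0.15 (SE 0.12, adjusted p = 0.702, edgeR), and 0.05 (SE 0.10, adjusted p = 0.971, edgeR) without replicate 3. Olig2, which specifies the lineage (chr16:91225795-91228922), had 11.98, 15.1 and 15.6 CPM in the Wildtype libraries and 13.0, 14.8 and 21.9 CPM in the Gadd45a-KO libraries, and a log2 fold change of 0.10 (SE 0.11, adjusted p = 0.810, edgeR). Without replicate 3 it lay at -0.02 (SE 0.07, adjusted p = 0.981, edgeR), the only member whose sign turned.

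With all 12 libraries the precursor genes differed least, with Olig2 close to them. Without replicate 3, Olig2, Enpp6 and Olig1 differed less than either precursor gene. Pdgfra, the receptor for the growth factor that keeps precursors dividing (chr5:75548316-75594229), had 43.8, 53.2 and 59.1 CPM in the Wildtype libraries and 43.3, 51.6 and 54.0 CPM in the Gadd45a-KO libraries. Its log2 fold change was -0.09 (SE 0.08, adjusted p = 0.720, edgeR) with replicate 3 and -0.09 without it, and replicate 3 itself, at 52.1 CPM, lay within the range of the others. Cspg4, the NG2 proteoglycan (chr9:56712911-56747677), had 17.9, 19.4 and 20.3 CPM against 18, 20.2 and 23.6 CPM, with a log2 fold change of 0.09 (SE 0.06, adjusted p = 0.556, edgeR), and 0.05 (SE 0.05, adjusted p = 0.848, edgeR) without replicate 3. These values do not show that the precursor genes were equal between the labels, only that no difference passed the test.

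Mature genes were then set against precursor genes within each library. The mean log2 CPM of the 27 mature genes ran from 4.76 to 5.36 in the libraries labelled Wildtype and from 5.14 to 6.32 in those labelled Gadd45a-KO, or to 5.36 without replicate 3. The mean of Pdgfra and Cspg4 ran from 4.86 to 5.08 and from 4.81 to 5.13. The mature minus the precursor value was on average 0.11 (SD 0.24, n = 6) in the Wildtype libraries and 0.45 (SD 0.40, n = 6) in the Gadd45a-KO libraries, and 0.31 (SD 0.18, n = 5) without replicate 3. The ranges overlapped, and no test was made of this value because the genes in it were chosen with earlier results known. Spread differed as well. The median coefficient of variation of the mature genes was 15.9% over the Wildtype libraries and 39.4% over the Gadd45a-KO libraries, but 9.07% over the latter without replicate 3.

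**Figure D3:**
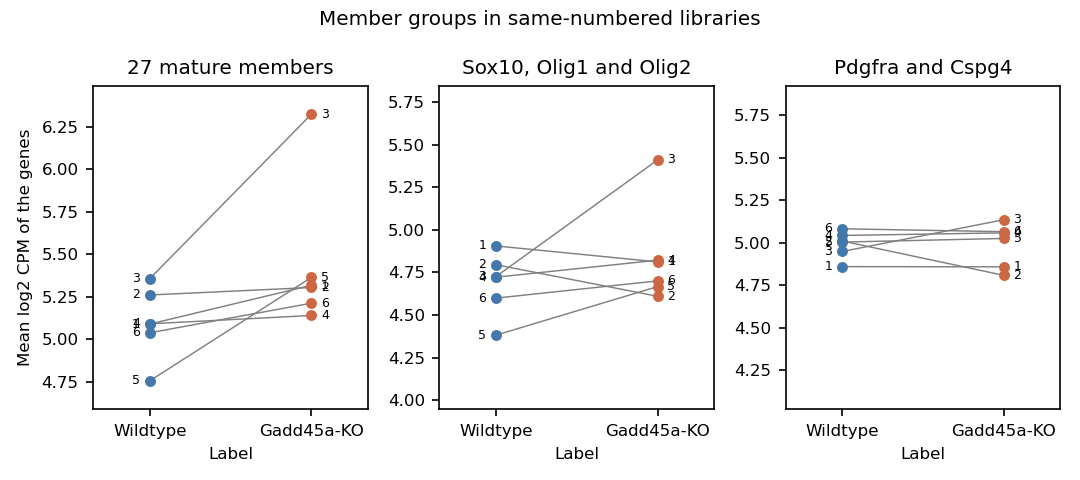
Mean log2 CPM of the 27 mature members (left), of Sox10, Olig1 and Olig2 (middle) and of Pdgfra and Cspg4 (right), by label; each point is a library, numbers are replicate numbers and lines join the libraries with the same number. The 3 panels span the same height, and the mature members differ most at number 3 (0.97) and number 5 (0.61).

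Libraries with the same replicate number were compared next, although nothing in the labels says that equal numbers share a litter or a day. For the mean of the mature genes, the library labelled Gadd45a-KO minus the one labelled Wildtype was 0.23, 0.04, 0.97, 0.05, 0.61 and 0.17 on the log2 scale for numbers 1 to 6. For Pdgfra and Cspg4 it was -0.00, -0.20, 0.19, 0.02, 0.02 and -0.02. The wide differences at numbers 3 and 5 thus held the libraries already named, Gadd45a-KO replicate 3 with its high level and Wildtype replicate 5 with its low level. The number of members higher in the Gadd45a-KO library was 28, 19, 34, 20, 33 and 29 of 34 in the same order. Mag, Cnp, Mal, Ermn, Aspa, Tspan2 and Ndrg1, 7 of 34 members, were higher in 6 of 6 comparisons, against 3.19% of all genes. With number 3 set aside, the same 7 of 34 were higher in 5 of 5, against 4.2% of all genes. All 34 members were higher at number 3, so that setting it aside could not change this count.

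Gadd45a-KO replicate 3 was examined gene by gene. Against the mean of the other 5 Gadd45a-KO libraries the mature genes were 1.46 to 2.40 times as high, with a median of 2.12. Gjb1, Prr5l and Fa2h stood highest, at 2.40, 2.38 and 2.37 times. Sox10 was at 1.85 times, Olig2 at 1.54, Olig1 at 1.47, Cspg4 at 1.18 and Pdgfra at 1.07. Sox10 thus lay within the range of the mature genes. Olig1 and Olig2 lay above Car2 (1.46) alone among them and below the next mature gene, Cntn2 (1.66). Both precursor genes lay below the range. The comparison of the labels shares this library. For 19 of 34 members the level was over 2 times the mean of the other 5, against 1.77% of all genes.

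Markers of a neighbouring brain region moved with the same library. The summed level of 10 thalamic markers was 673 CPM in Gadd45a-KO replicate 3, 450 CPM in Gadd45a-KO replicate 2 and 154 to 210 CPM in the other 10 libraries, and all 10 markers were highest in replicate 3. Tnnt1, the thalamic marker with the widest difference, was at 29.8 CPM in replicate 3, 15.6 CPM in replicate 2 and 1.12 to 1.83 CPM in the others (log2 fold change 2.63, SE 0.79, adjusted p = 0.0913, edgeR). The mature members did not follow in replicate 2, where they summed to 3500 CPM, within the 2323 to 3685 CPM of the other 10 libraries, while they summed to 6865 CPM in replicate 3. Without both libraries, a choice also made after the data were seen, the median log2 fold change of the members was 0.14 and 1 of 34 was higher at an unadjusted p under 0.05 in edgeR, against 1.47% of all genes, while the median of the thalamic markers went from 1.02 to -0.01. The part of adjacent tissue in the members' levels was not tested.

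**Figure D4:**
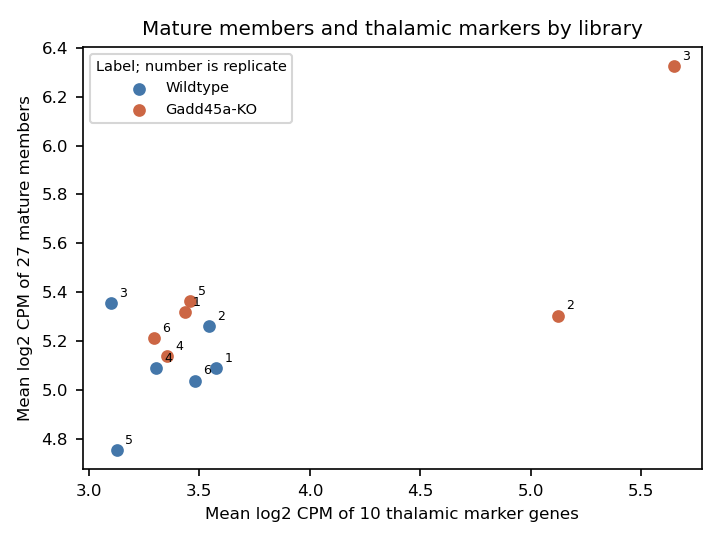
Mean log2 CPM of the 27 mature members (vertical) against that of 10 thalamic marker genes (horizontal); each point is a library, coloured by label and numbered by replicate. Gadd45a-KO replicate 3 is highest on both axes, Gadd45a-KO replicate 2 is high in the thalamic markers only, and the other 10 libraries lie together.

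Markers of other cell types were set beside it. Astrocyte markers summed to 2416 CPM in replicate 3 and 2233 to 2705 CPM in the other 11 libraries, microglial markers to 415 and 391 to 485 CPM, and endothelial and mural markers to 409 and 336 to 441 CPM. None of their 30 genes was called, with median log2 fold changes of 0.08, 0.07 and 0.12 and the widest differences in Gfap (0.21), P2ry12 (0.13) and Pdgfrb (0.19). Hippocampal neuron markers had a median of 0.02, with Prox1 of the dentate gyrus at -0.27, and none was called. Of 7 choroid plexus markers tested, 5 were highest in replicate 3, at a median over the 7 of 2.92 times the other 5 Gadd45a-KO libraries. Their median log2 fold change was 0.42, with Otx2 at 1.65 on 4 to 134 reads, and 0.10 without replicate 3, where 6 were tested, and none was called. Their summed level of 38.9 CPM in replicate 3 lay within the 28.2 to 43.7 CPM of the others. Most of this sum was Kl, at 30.2 CPM in replicate 3 and 26.6 to 39.8 CPM in the others. The sum therefore says little of the other choroid plexus markers. Myelin of the peripheral nerve is made by Schwann cells. Of their markers, none of the 4 tested was called, and Egr2 had the widest difference (-0.52), while the summed level of the list was 29.0 CPM in replicate 3 and 17.4 to 22.7 CPM in the others. The part of these cell types in the members' levels was not tested.

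Further genes of the lineage that were not members were counted in the same way. Of 20 other mature genes 0 were called at 1% FDR, 19 had a log2 fold change above 0, and the median was 0.36. All 20 were highest in Gadd45a-KO replicate 3, at 1.63 to 2.37 times the other Gadd45a-KO libraries, and without it the median was 0.15. Ninj2, a membrane adhesion protein, had the widest difference (0.50, SE 0.23, adjusted p = 0.338, edgeR), and Hhip, a hedgehog inhibitor at 59 to 176 reads, lay below 0 at -0.34. Replicate 3 was its highest library too, and without it Hhip was lower by the test at 5% FDR (-0.61, SE 0.15, adjusted p = 0.0382, edgeR), and at 1% FDR in DESeq2 (adjusted p = 0.00522). Hhip did not pass 5% FDR without replicate 3 of both labels (-0.55, adjusted p = 0.0910, edgeR). Nor did it without Gadd45a-KO replicates 2 and 3 (-0.65, adjusted p = 0.0555, edgeR). Of 12 other precursor genes 0 were called, with a median of 0.02, and 2 were highest in replicate 3. At an unadjusted p under 0.05 in edgeR, 3 of the 12 were lower and 2 higher, against 1533 and 712 of all 16399 genes tested. Without replicate 3, 4 of the 12 were lower and 0 higher at that threshold. The widest difference of the 12 was in Tnr, the matrix protein tenascin-R that mature oligodendrocytes and neurons also make, at -0.83 (SE 0.18, adjusted p = 0.0126, edgeR). DESeq2 placed Tnr past 1% FDR (adjusted p = 0.00197), and without replicate 3 it was at -0.77 (adjusted p = 0.0312, edgeR).

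On the axonal side of the myelin junction, Cntnap2, the neuronal partner of Cntn2 that holds potassium channels beside the node, was the only 1 of 8 genes called at 1% FDR. It had 89.4, 102 and 127 CPM in the libraries labelled Wildtype and 67.3, 74.7 and 88.1 CPM in those labelled Gadd45a-KO. The 2 ranges did not overlap, as for 3.12% of all genes in this direction, and the gene fell by 0.43 on the log2 scale (SE 0.08, adjusted p = 0.00657, edgeR). Without replicate 3 its log2 fold change was -0.42 (adjusted p = 0.0157, edgeR), and edgeR called no gene of the axon-glia list at 1% FDR. The call was lost in 10 of 12 fits that left out 1 library (adjusted p = 0.0110 to 0.0245, edgeR), holding without Wildtype replicate 1 and without Gadd45a-KO replicate 4, and it was lost with the length offset (-0.36, adjusted p = 0.0358, edgeR). Over those 12 fits the log2 fold change of Cntnap2 ran from -0.46 to -0.35. DESeq2 placed it past 1% FDR with all libraries (adjusted p = 8.96e-05) and without Gadd45a-KO replicate 3 (adjusted p = 0.000355). Kcna2, one of the potassium channels beside the node, passed 5% FDR (-1.02, SE 0.27, adjusted p = 0.0494, edgeR). Of the fits that left out 1 library, those without Wildtype replicate 1 or Gadd45a-KO replicates 4 or 5 kept this. It was lost in the others, as without Gadd45a-KO replicate 3 (adjusted p = 0.0926, edgeR) or Wildtype replicate 5 (adjusted p = 0.140, edgeR). In Gadd45a-KO replicate 3, Kcna2 was at 0.971 times the mean of the other 5 Gadd45a-KO libraries. Cholesterol synthesis, which supplies the main lipid of myelin, had 0 of 13 genes called, a median log2 fold change of 0.04 and its widest difference in Idi1 (0.14). Its summed level was 592 CPM in replicate 3, against 512 to 586 CPM in the other 11 libraries, a far narrower gap than that of the mature members.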

How the data were processed

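Poly(A) RNA of the hippocampus of 12 mice, 6 labelled Wildtype and 6 labelled Gadd45a-KO, was sequenced with a stranded kit. Per the study's methods and its processing notes, the authors aligned reads to NCBIM37/mm9 with TopHat 1.4.1, allowing up to 5 alignments per read, and deposited read counts per Ensembl gene from HTSeq 0.5.4p3 in reverse stranded mode, with no normalization and no pooling. Reads with several alignments or in overlapping genes on the same strand are not in the counts. The reads without a gene, left out here of library sizes and tests, were 14.4% to 15.8% (Wildtype) and 13.0% to 14.3% (Gadd45a-KO) of the reads assigned to a gene, to none or to several.

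Symbols and coordinates came from GENCODE M1 of NCBIM37, which named 37205 of 37991 gene IDs, and promoters from RefSeq (GRCm38.p6). The counts were filtered (filterByExpr), scaled (TMM) and compared with edgeR 4.0.16 in R 4.3.3 by its quasi-likelihood test with the label as the only term, and the study's threshold of 1% FDR was kept. Log2 CPM used a prior count of 2. Since the mice are separate animals, p-values set the difference between the labels against the spread between mice of a label. Exact permutation tests used scipy 1.17.1 in Python 3.11.15, and figures matplotlib 3.10.9. The procedures were first tested on simulated data.

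The members, the gene lists and the rules were chosen with earlier results of these data known. All 34 members are named. Values by library range are given for members past 1% FDR, the 3 lowest and 3 highest log2 fold changes, Mbp, Mog, Sox10, Olig2, Pdgfra and Cspg4. Of each other list, the genes past 1% FDR or otherwise the gene with the widest difference is named. Evi2a, Ndrg1, Bcas1, Enpp6, Hhip and Kcna2 were given with values or singled out after their values were seen. Alternatives were RLE size factors, DESeq2 1.42.0, no filter, 5% FDR, at least 10 reads in every library, a block for the replicate number, a smooth offset on transcript length (spline, 5 degrees of freedom) with and without the block, and leaving out each library.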

Additional observations from a re-analysis of the deposited data

Results flagged for a closer look

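In 31 of 68 groups examined (34 members under 2 labels, 6 libraries each), 1 library lay far from the other 5 by Dixon's criterion at 95%, which chance alone would give in about 1 of 20 groups, or 3.4 groups. In 30 of the 31 the library was the highest value of the libraries labelled Gadd45a-KO, and it was replicate 3 each time. Its gap to the next library took up 0.677 to 0.934 of the range over all 31 groups. The members are correlated, so that the 30 are largely a single event in a single library, and its cause was not tested. Among proteins of the myelin membrane, its levels were 2951 CPM for Mbp, 81.4 for Mog, 245 for Mag, 413 for Cnp, 1185 for Mobp, 354 for Mal, 159 for Cldn11, 37.1 for Opalin, 104 for Ermn, 183 for Tspan2, 63.3 for Pllp and 16.0 for Gjb1. Among enzymes of myelin lipid and metabolism, they were 68.0 CPM for Ugt8a, 34.1 for Aspa, 48.6 for Fa2h, 9.49 for Gal3st1 and 236 for Car2. The remaining mature genes stood at 219 CPM for Cntn2, 25.1 for Trf, 31.2 for Evi2a, 78.6 for Plekhh1, 22.0 for Prr5l, 9.23 for Tmem125, 113 for Gpr37, 30.3 for Hapln2 and 142 for Ndrg1. Bcas1 stood at 227 CPM, Enpp6 at 7.23, Sox10 at 48.1 and Olig2 at 21.9. Nkx6-2, Olig1, Pdgfra and Cspg4 did not meet the criterion in either label. The remaining group was Enpp6 in the libraries labelled Wildtype, where replicate 2 had 4.14 CPM and the other 5 had 2.88 to 3.24 CPM.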

How the results depend on the processing

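The count of members called at 1% FDR was 0 under every alternative run, and over single members and alternatives 746 values kept their direction and their side of the threshold. The exception was Olig2, which ran from -0.020 without Gadd45a-KO replicate 3 to 0.15 without Gadd45a-KO replicate 2, and was at -0.022 in DESeq2 without Gadd45a-KO replicate 3. The median log2 fold change of the members ran from 0.16 to 0.47 over the fits that left out 1 library, the lowest without Gadd45a-KO replicate 3, and their lowest adjusted p was 0.126. Over the same fits the count of all genes called, 434 with all libraries, ran from 242 to 470, and that of genes in the other lists, 1 with all libraries (Cntnap2), from 0 to 2. All genes called were 681 with DESeq2, 257 with the length offset, 746 at 5% FDR, 202 without Gadd45a-KO replicates 2 and 3, 221 without replicate 3 of both labels and 590 with DESeq2 without Gadd45a-KO replicate 3. In the same order the other lists had 2, 0, 3, 0, 0 and 3 genes, and 2 without a filter. Members with an exact permutation p under 0.05 went from 7 to 1 without Gadd45a-KO replicate 3.

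With the replicate number as a block, 0 members were called at 1% FDR, their median was 0.34 and the lowest adjusted p was 0.0612. All genes called were 514, and the other lists had 3 (Tnr, Cntnap2 and Kcna2). With the block and the length offset together, all genes called were 284 and the other lists had 2, and Tspan2 passed 5% FDR (0.36, adjusted p = 0.0402, edgeR), the only member to do so in any fit. The deviations of same-numbered libraries correlated at -0.0761 to 0.262, 5 of 6 over 0.1, and 4 of 12 libraries matched their own number best, so that the numbers are not shown to pair the mice. Members had 81 reads or more in each library.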
